A study of Macaca fascicularis with 10 samples.

Results

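TTR encodes transthyretin, a secreted protein that carries thyroxine and, bound to retinol-binding protein, vitamin A. In the brain it is made by the epithelium of the choroid plexus, the tissue in the ventricles that forms cerebrospinal fluid, and it is released into that fluid. The dorsal raphe nucleus, a midline brainstem nucleus rich in serotonin neurons, lies just below the cerebral aqueduct, whose wall is lined by ciliated ependymal cells. TTR was taken as 1 row of a deposited count table of 7229 genes, with its maternal and its paternal column in all 10 daughters. It is an autosomal gene, placed on chromosome 18 in the assembly T2T-MFA8v1.1.

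The samples were total RNA of that nucleus from 10 female cynomolgus macaques (Macaca fascicularis). The labels name both parents of each animal. The labels give 1 tissue, 1 group, no treatment and no age, so the comparison is between the 2 alleles of a gene within a daughter. The numbers 1 to 10 used for the daughters follow the label order, 1 to 6 with title prefix 10203 and 7 to 10 with 10480, the only technical split that the labels give.

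The table held between 30090 and 999471 allelic reads per daughter, that is, reads assigned to 1 parental allele. Such a read needs a position at which the parents differ. The count of a gene therefore follows its number of informative positions in that daughter as well as its RNA. As a check of the tissue, serotonin neuron genes had reads in 9 of the 10 daughters. Daughters 2 and 7 had only 14 and 11 reads over the list, none of them of TPH2, and daughter 1 had none. The check therefore says little of these daughters. Of 14 such genes looked for, 7 were in the table, 2 were tested between the parental columns by edgeR and 0 passed. TPH2, which makes the precursor of serotonin in neurons, had from 41 reads in daughter 5 to 5409 in daughter 6 among the 7 daughters with a value.

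TTR had a value in 6 of 10 daughters, with more reads in the maternal column in 4 and in the paternal column in 2. Daughter 2 had 7 maternal and 9 paternal reads, and daughter 3 had 14 and 4. Daughter 4 had 74 maternal and 52 paternal reads, daughter 5 had 162 and 117, and daughter 6 had 47 and 35. Daughter 10 had 119 maternal and 124 paternal reads. In all there were 423 maternal and 341 paternal reads, and daughters 5 and 10 held 68.3% of them, while daughters 2 and 3 were thin.

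**Figure D1:**
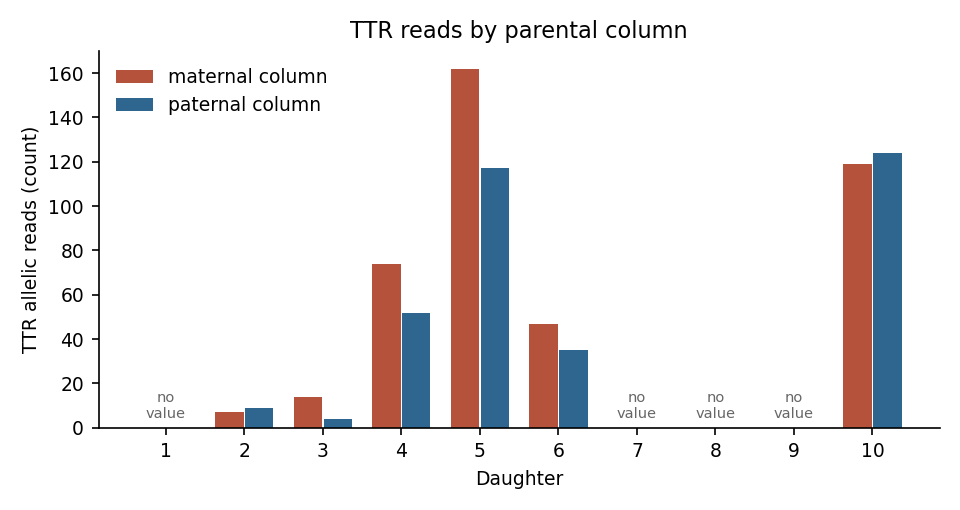
TTR allelic reads (counts) in the maternal and the paternal column of each of the 10 daughters; each bar is 1 column of 1 library, so there is no error bar. The maternal bar is the taller in daughters 3, 4, 5 and 6, the bars of daughter 10 are nearly equal at 119 and 124, and daughters 1, 7, 8 and 9 have no value.

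Daughters 1, 7, 8 and 9 had no TTR value in either column. These are the 4 daughters with the fewest allelic reads, at most 417685, against at least 498639 in the 6 daughters with TTR. They include the 3 daughters of 1 labelled father (1, 7 and 8). A missing value does not show that TTR was unexpressed there, since depth and informative positions differ as well, and their part in it was not tested. Of the 739 genes with a value in exactly 6 daughters, 32 had it in these 6, TTR included.

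The paternal share, the percent of TTR reads in the paternal column, had a mean of 42.6% ± 11.6 (SD, n = 6) and a median of 42.3%. Daughter 3 was lowest, at 22.2% of 18 reads with a 95% Wilson interval from 9.0 to 45.2. Daughter 4 had 41.3% of 126 reads (33.1 to 50), daughter 5 had 41.9% of 279 (36.3 to 47.8), and daughter 6 had 42.7% of 82 (32.5 to 53.5). Daughter 10 had 51.0% of 243 reads (44.8 to 57.2), and daughter 2 was highest, at 56.2% of 16 (33.2 to 76.9). The intervals overlapped in all 15 pairs of daughters, so this order is not firm. Overlap is no test of a difference between 2 daughters, and no such test was run. The intervals cover counting error only, since reads without molecular identifiers are not independent molecules. The highest and the lowest share came from the 2 daughters with fewest TTR reads, and the 4 daughters with 20 or more reads had a mean of 44.2%.

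**Figure D2:**
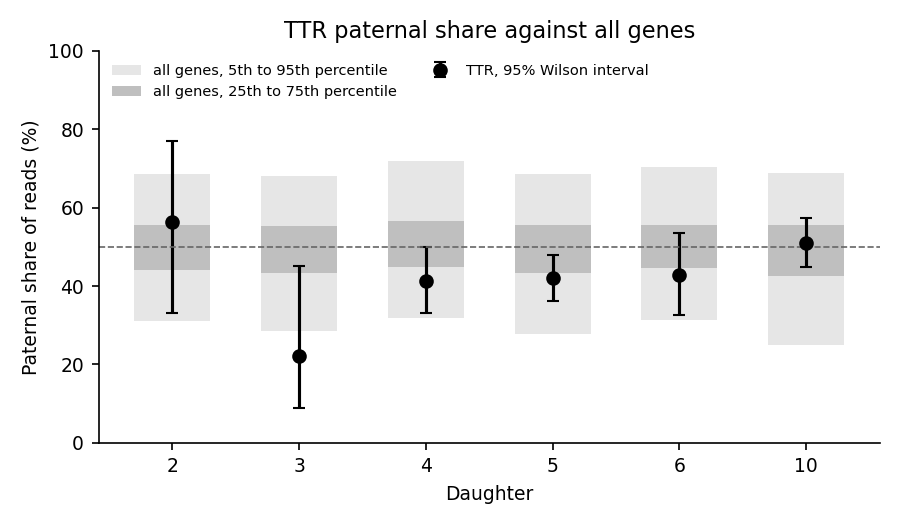
Paternal share of TTR reads (%) in the 6 daughters with a value, as points with 95% Wilson intervals, over grey bars that span the 25th to 75th and the 5th to 95th percentile of all genes with 10 or more reads in that daughter. The dashed line is an equal share; TTR in daughter 3 lies below the wider bar at 22.2%, and daughters 4, 5 and 6 lie between 41.3% and 42.7%.

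The first comparison asked whether 1 parental column of TTR held more reads over the daughters. The paternal minus maternal difference was log2 -0.39 ± 0.22 (SE) by edgeR's quasi-likelihood test over the whole table with the daughter as block. By that test its unadjusted p was 0.1095 and its adjusted p was 1. The 4 daughters without TTR add nothing to that estimate. A two-sided exact sign-flip permutation test of the 6 shares against equality gave p = 0.125, where 0.0312 is the smallest that 6 daughters allow. The lower paternal share of TTR was therefore not larger than the spread between daughters. Over all genes edgeR called 0 of 2981 (0%) at an adjusted p of 0.05, with 94 at an unadjusted p under 0.05, and DESeq2 called 0 with 61. A result that misses the threshold does not show that the alleles were equal.

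Over the 2981 genes that edgeR tested, the median of the mean paternal share was 49.8%. For 11.6% of them the mean lay farther from an equal share than that of TTR, and for 6.78% it was lower.

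Within single daughters TTR did not pass the exact binomial test against an equal share in any of the 6. The p-values were adjusted over all genes with 10 or more reads in that daughter. Daughter 5, with the most TTR reads, came closest, with an unadjusted p of 0.00832 and an adjusted p of 0.0706 by the exact binomial test. Daughter 3 had an adjusted p of 0.206, daughter 4 of 0.304 and daughter 6 of 0.585 by the same exact test, and daughters 2 and 10 had 1. Over all genes the test called 7.04%, 8.49%, 10.2%, 10.3%, 10.8% and 8.85% in daughters 2, 3, 4, 5, 6 and 10. It called 2.85%, 7.2%, 6.82% and 6.8% in daughters 1, 7, 8 and 9, which have no TTR value. It compares the alleles within 1 library and has no replicate. In daughter 3, 4.15% of all tested genes, and 7.59% of genes with 0.5 to 2 times as many reads as TTR, lay farther from an equal share. In daughters 2, 4, 5, 6 and 10, 45.6%, 34.9%, 38.7%, 39.3% and 89.3% of all tested genes did.

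The spread of the TTR share between daughters was that of a typical gene. The ratio of the Pearson chi-square to its degrees of freedom, which is near 1 when daughters differ by counting error alone, was 2.02 for TTR against a median of 2.01 over 2981 genes. It was larger than that of TTR in 49.8% of genes. Without daughter 10 it was 1.06 and without daughter 3 it was 1.58, so the excess over counting error rests largely on these daughters. Without any other single daughter it was 2.18 to 2.48. The ratio of TTR was not given a p. The SD of the share, 11.6 points, compares with a median of 9.53 points over all genes.

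Among the daughters with TTR reads, 2 pairs share a labelled parent. Daughters 4 and 5, with the same father, had paternal shares 0.666 points apart (41.3% and 41.9%). Daughters 6 and 10, with the same mother, had shares of 42.7% and 51.0%, the second 8.35 points higher. The Wilson intervals overlapped within each pair. The tests and the SD over daughters take these half-sisters as independent.

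Within title prefix 10203 the mean paternal share was 40.9% ± 12.1 (SD, n = 5), with an exact sign-flip permutation p of 0.125 where 0.0625 is the smallest possible. Prefix 10480 held 1 daughter with TTR, daughter 10, at 51.0%. The interaction of parental column and prefix was log2 0.57 ± 0.53 (SE, edgeR adjusted p = 1), against 0.0335% of 2981 genes called in that test. With 1 daughter in 1 arm, the prefix and that daughter cannot be told apart.

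The level of TTR varied widely between daughters, with daughters 5 and 10 high and daughters 2 and 3 low. In CPM, the count scaled to the total of allelic reads, daughters 3 and 2 had 27.7 and 29.2. Daughter 6 had 82.0 CPM, daughter 4 had 149.9, daughter 5 had 304.1 and daughter 10 had 487.3. The mean was 180.1 ± 182.4 CPM (SD, n = 6). In that order only daughters 3 and 2 had overlapping 95% exact Poisson intervals (16.4 to 43.8 and 16.7 to 47.5). The highest level was 17.6 times the lowest. Over the 1025 genes with 10 or more reads in the same 6 daughters, the median of that ratio was 4.65, and 4.49% of genes had a wider range. The SD of log2 CPM was 1.72 for TTR and 0.84 for the median gene. Informative positions enter these levels, and in bulk tissue fewer cells of a type and less RNA per cell cannot be told apart. The highest level belongs to the only TTR daughter of prefix 10480, and without it the mean was 118.6 ± 115.1 CPM (SD, n = 5).

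Both alleles followed this order. Maternal CPM, of the maternal total, was 25.7, 42.5, 94.1, 177.4, 353.3 and 470.3 in daughters 2, 3, 6, 4, 5 and 10. Paternal CPM was 32.7, 12.5, 70.03, 122.9, 255.0 and 504.9 in the same order. Daughters 2 and 3 changed places between the alleles, and the other 4 kept their order. The only relation tested gave Pearson's r = 0.97 (exact permutation p = 0.00556, two-sided, n = 6) and Spearman's rho = 0.94 (exact permutation p = 0.0167). Without daughters 5 and 10, the 2 farthest from the median, r was 0.96 over 4 daughters, and within prefix 10203 it was 0.99 over 5, fewer than the 6 that a correlation calls for. Both columns are counted at the same informative positions, so they share that factor, and the coefficient is set beside that of all genes. The median r over the 1025 genes in these daughters was 0.89, and 20.8% of genes had a higher r than TTR.

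**Figure D3:**
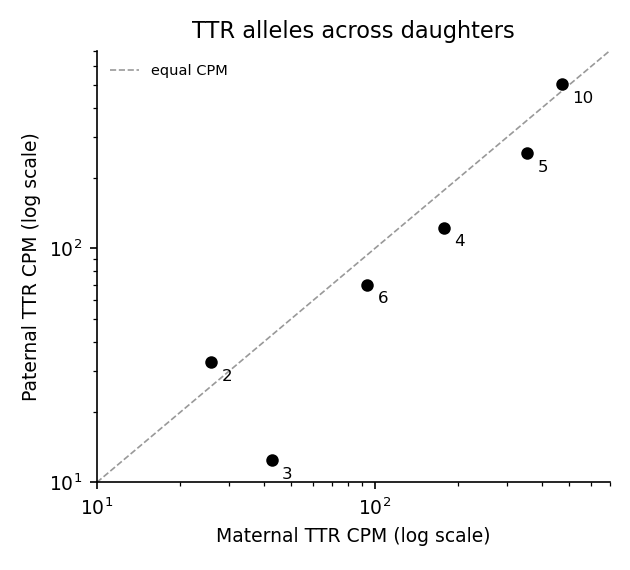
Paternal against maternal TTR CPM, each of the total of its own allele, both axes logarithmic, 1 point per daughter with its number and the dashed line at equal CPM. The points run from daughters 2 and 3 near the lower left to daughter 10 at 470.3 maternal and 504.9 paternal CPM, and daughter 3 lies farthest below the line.

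Of 20 other choroid plexus genes looked for, 9 were in the table and 8 had 10 or more reads in a daughter. None of the 3 tested by edgeR passed (background 0%). The median paternal share over their 33 measurements with 10 or more reads was 50%, equal to the median over all genes, and 46.5% over the 24 in the daughters with TTR. Those 24 include 4 measurements of CLDN2, an X-linked gene, with shares from 9.09% to 31.2%. No median was taken without them, so the 46.5% is no measure of the autosomal members. Of the 33 measurements, 24 lay between 40% and 60%, or 72.7%, against 69.8% over all genes.

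Members of the list differed widely in reads, and 5 of them had at most 19 in any daughter. FOLR1, the folate receptor of the choroid plexus epithelium, had 3 reads in daughter 2, 11 in daughter 6 and 19 in daughter 10. CLDN2, a tight junction protein, had 13, 6, 17, 16 and 11 reads in daughters 3, 4, 5, 6 and 10. KL, which encodes klotho, had between 1 and 13 reads in 8 daughters, and CLIC6, a chloride channel protein, between 1 and 6 in 4. SLC4A5, a bicarbonate transporter, had 2 to 10 reads in 4 daughters. FOLR1, CLDN2 and SLC4A5 had values in daughters with TTR alone, while the other 6 members also had reads in daughters without it. Between 4 and 8 of the 9 members had reads in each daughter with TTR, and between 2 and 4 in each of the others, which are the shallower libraries. All genes of the table fell in the same way, from 3459 to 4816 with a value in daughters with TTR to 1753 to 3327 in the others. The share of all genes with values in daughters with TTR alone was not taken, so these counts describe the list only.

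The paternal share of CLDN2 was 30.8%, 17.6%, 31.2% and 9.09% in daughters 3, 5, 6 and 10, and all 6 reads of daughter 4 were paternal. CLDN2 is on the X chromosome in the gene table, where the median paternal share over genes with 10 or more reads was 27.8%, 27.6%, 44.4% and 29.6% in those 4 daughters and 73.6% in daughter 4. Its side was thus that of the X-linked genes in each of them, and it is no comparison for an autosomal gene such as TTR.

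ENPP2, which makes lysophosphatidic acid and is also expressed by oligodendrocytes, had a paternal share of 50.4% ± 4.91 (SD, n = 8). It held between 65.9% and 99.0% of the reads of the list wherever it had a value. SLC4A2, an anion exchanger, had 52.7% ± 8.35 (SD, n = 7), IGFBP2, a binding protein of insulin-like growth factors, 49.96% ± 9.38 (SD, n = 6), and CAB39L 49.8% ± 9.73 (SD, n = 4). In daughter 5, where TTR had 41.9%, ENPP2 had 46.3% of 1822 reads (adjusted p = 0.0228 by the exact binomial test). In daughter 2 SLC4A2 had 68.8% of 128 reads (adjusted p = 0.000895 by the same exact test). These were the 2 of the 33 measurements of the list that passed, while 8.67% of all 27887 measurements in the table did.

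Ependymal genes had 63 measurements with 10 or more reads, 48 of them in daughters with TTR, against 20281 of 27887 over all genes. Of 17 looked for, 10 were in the table, 8 were tested by edgeR and 0 passed (background 0%), with a median paternal share of 48.5% over 63 measurements. DNAH9, a dynein of motile cilia, had from 17 reads in daughter 9 to 1142 in daughter 3, and a paternal share of 46.6% ± 5.55 (SD, n = 9). TEKT1, a filament protein of cilia, had 51.3% ± 7.47 (SD, n = 8), and HYDIN, part of the ciliary central apparatus, 49.4% ± 8.93 (SD, n = 9). DNAH11, another ciliary dynein, had 51.6% ± 2.58 (SD, n = 7). By the exact binomial test 5 of the 63 measurements passed, and 8.67% of all 27887 in the table did. CCDC153 had 82.0% of 89 reads in daughter 3 (adjusted p = 3.89e-08, exact binomial test), the daughter in which TTR had 22.2%. In daughter 5, where TTR had 41.9%, DNAI1 had 22.6% of 31 reads (adjusted p = 0.0357, exact binomial test). DNAH6 had 39.6% of 225 there (adjusted p = 0.0254, exact binomial test). In daughter 10, where TTR had 51.0%, DNAI1 had 78.1% of 32 reads (adjusted p = 0.0276, same test). In daughter 2, where TTR had 56.2%, TEKT1 had 37.3% of 236 reads (adjusted p = 0.00304, same test).

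The summed level of the ependymal list ran from 1171 to 3730 CPM in the 6 daughters with TTR and from 93.4 to 1427 in the 4 without. These ranges overlap. Within the 6, daughter 3 had the highest ependymal sum and the lowest TTR level. Daughters 10 and 5, with the highest TTR levels, had the next highest ependymal sums, at 2988 and 2649 CPM. Daughters 6, 4 and 2 had 1579, 1342 and 1171 CPM. The summed choroid plexus list without TTR ran from 106.1 to 2552 CPM in daughters with TTR and from 350.3 to 3257 in those without. Leaving out ENPP2, those ranges were 80.04 to 565.7 and 33.2 to 423.4. The part of the amount of ventricular wall or choroid plexus in the level of TTR was not tested.

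**Figure D4:**
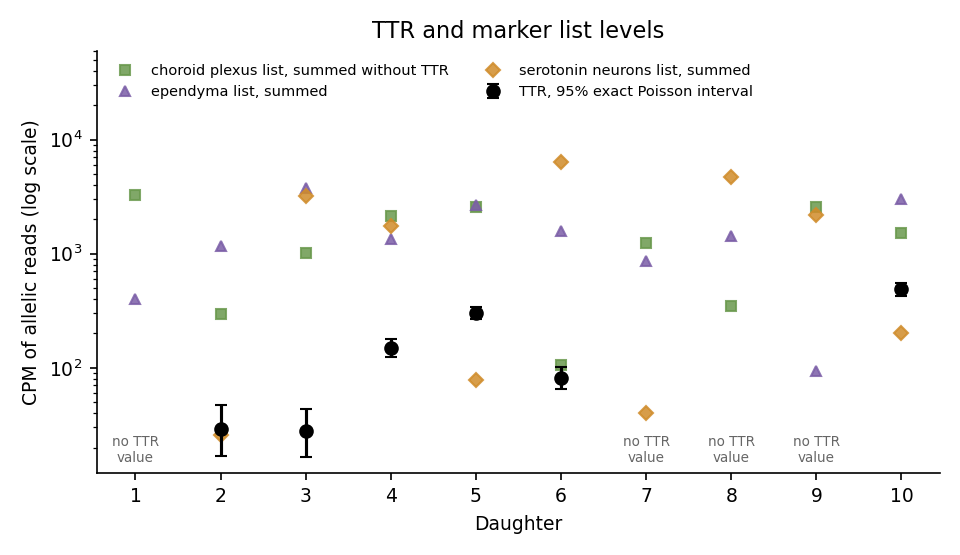
CPM of allelic reads (log axis) in each of the 10 daughters, with TTR as black points with 95% exact Poisson intervals and the summed choroid plexus list without TTR, ependymal list and serotonin neuron list as coloured points; the serotonin list has no read in daughter 1 and is not drawn there. TTR runs from 27.7 in daughter 3 to 487.3 in daughter 10, and heights are not comparable between genes or lists because they are not set per length or per informative position.

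Genes of thyroid hormone transport and action were thinly covered. Of 21 looked for, 5 were in the table, 2 were tested by edgeR and 0 passed (background 0%), with a median paternal share of 49.3% over 20 measurements. SLCO1C1, a thyroxine transporter of brain vessels and choroid plexus, had 2 to 16 reads in 8 daughters. HR, a corepressor of thyroid hormone receptors, had 52.0% ± 12.5 (SD, n = 7). SERPINA7, the thyroxine-binding globulin of blood, had 1 read in all.

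Of 21 genes of vitamin A transport and signalling, 7 were in the table, 1 was tested by edgeR and 0 passed (background 0%). All 11 measurements with 10 or more reads lay between 40% and 60%. RBP4, the retinol carrier that circulates bound to transthyretin, passed 10 reads in daughters 6 and 5, with 48.0% of 98 and 56.2% of 16. TTR had 42.7% and 41.9% there. DHRS3, a retinal reductase, had 52.2% ± 4.47 (SD, n = 5). LRP2, the endocytic receptor megalin, had 45.2% ± 6.89 (SD, n = 4).

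Of 11 carriers and amyloid-related genes, 7 were in the table, 2 were tested by edgeR and 0 passed (background 0%), with a median paternal share of 48.7% over 29 measurements. CLU, an extracellular chaperone, was read in daughters 3, 4, 5 and 8, with paternal shares of 46.9% of 4652 reads, 53.1% of 5900, 53.7% of 10541 and 46.0% of 1839. In daughters 4 and 5 it was thus on the paternal side while TTR was on the maternal side. At its read number such small shifts passed the exact binomial test (adjusted p = 2.18e-12 in daughter 5), whereas the larger shift of TTR there did not. The lipid carrier APOE had 48.5% ± 0.904 (SD, n = 3), and LRP1, an endocytic receptor, 50.2% ± 5.06 (SD, n = 10). The protease inhibitor CST3 had 50.9% ± 15.8 (SD, n = 4). In daughters 4, 5 and 6 it was on the maternal side, as TTR was. It had 47.0% of 2949 reads, 43.6% of 280 and 39.1% of 23 there. In daughter 4 its adjusted p was 0.0133 by the exact binomial test. In daughter 9, which has no TTR value, CST3 had 74.1% of 27 reads. None of the 9 transcription factors known to act on TTR in liver had a row in the table, and they were not analysed here.

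The genes around TTR took no single side with respect to it. The 10 nearest measured genes on each side gave 70 measurements with 10 or more reads in the 6 daughters. Of these, 24 lay below 50% paternal, against 46.8% to 50.1% of all genes in each of these daughters. On the side of TTR in that daughter lay 31 of the 70, for which no pooled share over all genes is given. In daughter 3, where TTR had 22.2%, 0 of 12 neighbours lay below 50%, against 48.7% of all genes in that daughter. In daughters 4 and 5, 5 of 14 and 4 of 11 lay on the maternal side with TTR, and in daughter 6 10 of 14 did. Of all genes, 46.8%, 50.1% and 48.6% lay below 50% in daughters 4, 5 and 6. In daughters 2 and 10, where TTR lay on the paternal side, 7 of 10 and 5 of 9 lay there too. Below 50% lay 2 of 10 and 3 of 9 neighbours there, against 49.1% and 49.9% of all genes. By the exact binomial test 2 of the 70 passed, KCTD1 at 3.28% of 61 reads in daughter 2 and GALNT1 at 41.4% of 374 in daughter 6. Over all genes the test called 7.04% to 10.8% in these 6 daughters.

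The nearest genes with reads were B4GALT6, a glycolipid-synthesis enzyme, with 70% of 20 reads in daughter 4, and DSG2, a desmosomal cadherin. DSG2 had 70%, 28.9%, 69.2% and 56.5% in daughters 3, 5, 6 and 10, of 30, 38, 13 and 23 reads, and 50% of 10 in daughter 4. The desmosomal cadherin DSC2 had 59.7% ± 11.6 (SD, n = 6) and the better covered CDH2, which encodes N-cadherin, 53.3% ± 2.85 (SD, n = 6). These counts of neighbours carry no test.

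**Figure D5:**
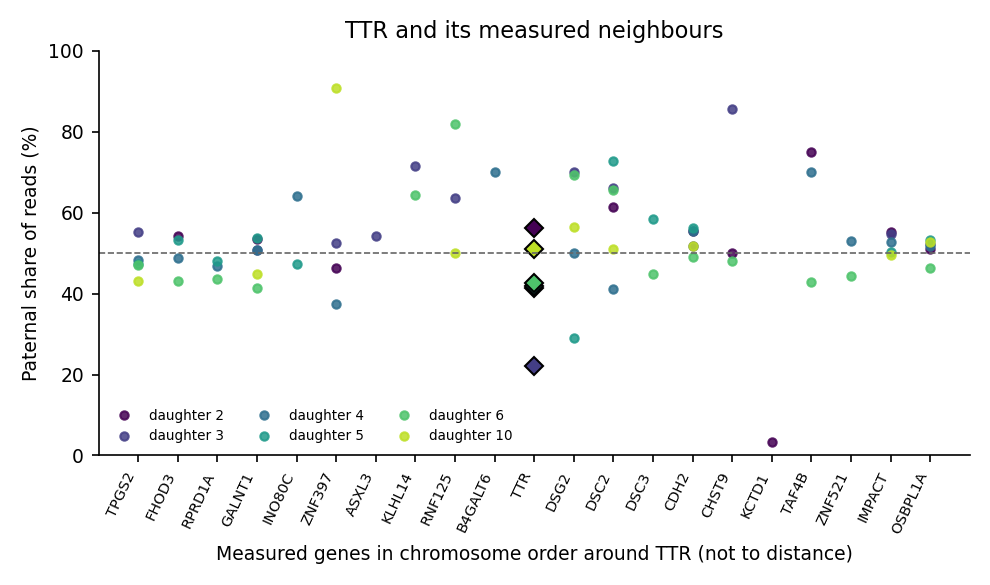
Paternal share (%) of TTR (diamonds) and of the 10 nearest measured genes on each side in chromosome order (circles; order only, not distance), coloured by daughter, for genes with 10 or more reads in that daughter. The TTR diamonds of daughters 3, 4, 5 and 6 lie below the dashed line at an equal share. Of the 70 circles, 24 do, against 46.8% to 50.1% of all genes in each of these daughters.

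Of 1024 other genes with 10 or more reads in the 6 daughters, those whose log2 CPM was most like that of TTR were ANKRD17 (r = 0.96), CCT7 (r = 0.96), PPP1R16A (r = 0.94), CAPN10 (r = 0.89) and RHPN1 (r = 0.89), against a median r of -0.11. ANKRD17 was lowest in daughters 3 and 2, at 160.1 and 166.3 CPM, and highest in daughters 5 and 10, at 371.7 and 336.9. In log2 paternal over maternal ratio the most similar were HSPA8 (r = 0.98), HADHA (r = 0.93), CLCN7 (r = 0.93), RNF216 (r = 0.93) and SMC3 (r = 0.91). The chaperone gene HSPA8 had 43.3% in daughter 3 and 54.9% in daughter 2, a narrower range than TTR in the same order of extremes. These r rest on 6 daughters and are the highest of 1024, so they describe the table and carry no test.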

How the data were processed

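The libraries were stranded, of total RNA depleted of ribosomal RNA, per the labels' protocols. The submitters' processing notes name Novoalign. The authors deposited whole-number counts per gene and parental allele, on macFas5 per the file headers. The protocol text also describes an antibody step on nuclei, which no value used here comes from. Phasing and counting rules are not given in the sources used here. Missing values entered the count model as 0.

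The 2981 genes with at least 10 allelic reads in at least 5 daughters were tested. edgeR 4.0.16 in R 4.3.3 (TMM, robust glmQLFit, daughter as block, library size over both alleles) was the main test, with Benjamini-Hochberg adjustment at 0.05, and DESeq2 1.42.0 the alternative. In simulated counts of those 2981 genes, the comparison of the parental columns found 85% of 100 genes with a 2-fold change and 100% of 100 with a 4-fold change. It made 4 false calls. A difference as small as that of TTR was not simulated, so these rates do not apply to it. The simulated shift was the same in every daughter, and its spread was the trend over all genes. The rates therefore do not cover genes that vary more between daughters than that trend. Shares carry 95% Wilson intervals, and CPM exact Poisson intervals, which cover counting error only. The permutation, binomial and correlation tests used SciPy 1.17.1 with Python 3.11.15.

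The gene and the lists were chosen with earlier results of these data known. Named genes were TTR, up to 4 genes per list by mean level (others by counts or where a statement needed them), the 10 nearest measured genes on each side by the order of T2T-MFA8v1.1, another build, and the 5 most similar genes per measure. KL, CLIC6, SLC4A5, FOLR1, CLDN2, CCDC153, DNAI1, DNAH6 and SERPINA7 were named after their values were seen. Some genes that this rule names are not reported here. Daughters are separate animals, some of which share a labelled parent. Depth per daughter was 30090 to 999471 allelic reads, so precision is lowest in daughter 1.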

Additional observations from a re-analysis of the deposited data

How the results depend on the processing

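The direction of TTR in edgeR was maternal in every setting run, with log2 paternal minus maternal from -0.51 (without daughter 10) to -0.26 (without daughter 3) and an adjusted p of 1 or 0.9999. Its unadjusted p by edgeR ran from 0.06655 (without daughter 10) to 0.2196 (without daughter 3). Under the filter of 20 reads in 5 daughters TTR was not tested, since 4 daughters reach that. The mean share stayed below equality at other read minimums, as a log2 ratio (-0.45), pooled (44.6%) and without single daughters (39.8% to 46.6%, exact permutation p from 0.125 to 0.25), but was 51.0% within prefix 10480, which holds 1 daughter. With 5 daughters the smallest possible p is 0.0625, so these runs could not pass and say nothing of stability. The chi-square ratio was 1.06 to 2.48 without single daughters, lowest without daughter 10. The mean level was 369.3 CPM over genes measured in every daughter, a smaller total, and the highest daughter was then 18.6 times the lowest. Over all genes edgeR called 2 without the filter and 0 to 1 without single daughters (1 without daughter 4). For the prefix interaction it called 1, and 0 without the filter or with 20 or more reads; the cause was not tested. The daughter is the block in every edgeR and DESeq2 fit. The adjusted tests of TTR by edgeR, DESeq2 and the exact binomial stayed short of the threshold under the alternatives run. In the correlation of the alleles Pearson's r kept its call without single daughters, while the exact permutation p of Spearman's rho was 0.0833 without daughter 4, 5, 6 or 10. Depth limits daughters 2 and 3, with 16 and 18 TTR reads.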
